A study of Mus musculus with 9 samples.

Results

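Mef2a, Mef2c, Mef2d, Six4 and Tcf12 are 5 transcription factor genes that work beside the MyoD family in skeletal muscle. They were taken by symbol from the count tables, where they are 5 of 47728 genes, and all 5 passed the filter on low counts. PolyA RNA had been sequenced from C2C12, an established mouse myoblast line whose cells leave the cell cycle and fuse into myotubes when serum is lowered. Cultures were of 3 kinds: knockdown of Cry1, knockdown of Cry2, and a control that the sample titles call Neg. Each was sampled on days 0, 3 and 5 of differentiation, where day 0 is the change from growth medium with fetal bovine serum to differentiation medium with horse serum, insulin, transferrin and selenium. Every combination of genotype and day has 1 library, which makes 9 libraries. How the knockdowns were made, and whether the cultures of a genotype were 1 clone or a pool of cells, are not given in the sources used here. Cry1 and Cry2 encode cryptochromes, which repress transcription driven by the circadian clock.

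MEF2 proteins bind an A and T rich DNA element as dimers and switch on contractile and metabolic genes of muscle, in concert with MyoD and myogenin. Class II histone deacetylases hold MEF2 proteins inactive, while p38 kinase and calcineurin pathways activate them. Six4 is a homeodomain protein that recruits EYA proteins as coactivators and acts on genes such as Myog. Tcf12, also called HEB, is an E protein, the class of helix-loop-helix factor with which MyoD and myogenin pair to bind the E-box, and Id proteins block this pairing by taking up E proteins.

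The sequences before the start sites show what each gene's promoter holds of the elements that these factors read. The stretches were taken from RefSeq on build GRCm38.p6, 250 bases before each annotated start, and both strands were searched. Capitals mark the matches, printed 5′ to 3′ on the gene's own strand. AACCTGA is the Six4 site TCAGGTT on the opposite strand, and CANNTG is the general E-box.
Mef2c, first start, chr13:83503784-83504033, plus strand: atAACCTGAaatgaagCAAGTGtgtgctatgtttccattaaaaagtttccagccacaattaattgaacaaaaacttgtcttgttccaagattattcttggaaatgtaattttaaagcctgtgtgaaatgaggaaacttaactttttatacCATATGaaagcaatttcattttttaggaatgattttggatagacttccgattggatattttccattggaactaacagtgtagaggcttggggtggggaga
Six4, chr12:73113325-73113353, minus strand: ggcctgggggaAACCTGAtcggccagatc
Tcf12, chr9:72112043-72112069, minus strand: agatgctgccCAGCTGcgtccccgtcg
Mef2c has 3 windows. The first, printed above, holds a Six4 site that begins 248 bases before the start, and 2 E-boxes that begin 234 and 100 bases before it. The window numbered 3 holds a further E-box, CAGATG, that begins 245 bases before its own start. The Six4 match begins 97 bases before the second of 2 annotated starts. Mef2c and Six4 were the only 2 of the 5 genes with a Six4 site, each in 1 window. The site occurred in 4.07% of 27025 genes and in 3.49% of 32851 windows, and a gene with more windows has more room for a match. Tcf12 alone carried CAGCTG, the form of the E-box that MyoD prefers, in 1 of its 3 windows. This form was found in 14.7% of all genes. The E-box CACGTG, which clock proteins bind, was in none of the windows of the 5 genes and in 6.86% of all genes. The pattern CTANNNNTAG, searched for MEF2, was in none of the 5 and in 3.7%. It allows any base at each N and is not limited to A and T, so these are not counts of MEF2 sites. The general E-box, which includes both 6-letter forms, was in 2 of the 5 genes, Mef2c and Tcf12, and in 69.3% of all genes. No match was found for Mef2a and Mef2d. A match describes these letters alone and is no evidence of binding.

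Library totals ran from 4731020 to 6412279 counts, and the floor set by a count of 0, taken as 3 counts, was 0.468 to 0.634 CPM (counts scaled to library size, with TMM factors, for every level below). Cry1 ran from 6.64 to 8.28 CPM over the days of its knockdown and from 15.8 to 20.5 CPM over those of the control. Cry2 ran from 7.25 to 16.6 CPM in its knockdown and from 19.2 to 48.8 CPM in the control, and at every day each of them was lower in its own knockdown than in the control. All 11 myoblast and myotube markers were above the floor in every library, with a summed level from 2513 to 22327 CPM. Of 6 endothelial and blood cell markers at most 1 was above the floor, with a summed level up to 1.06 CPM. Of 6 heart markers 2 to 3 were above it (35.9 to 89.3 CPM summed). Gata4 had 25.5 to 44.2 CPM, and Myh6 had 1.32, 11.2 and 53.2 CPM at days 0, 3 and 5 in the control. At day 5 Myh6 had 61.1 CPM in the Cry1 knockdown and 21.9 CPM in the Cry2 knockdown. Nkx2-5 had 0.705 to 1.92 CPM and Hand2 at most 0.161 CPM, with Tbx5 and Nppa at 0 in every library. The other marker lists were also read: of 5 smooth muscle markers 2 to 4 were above the floor (171.8 to 234.3 CPM summed), of 5 adipocyte markers 1 to 2 (6.31 to 13.2 CPM) and of 5 neuron markers 1 (42.5 to 324.3 CPM, nearly all Tubb3).

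Mef2c was the gene of this set that differed most between libraries. The control libraries read 8.78, 119 and 390 CPM on days 0, 3 and 5. In the Cry1 knockdown the same days gave 28.4, 342 and 630 CPM. In the Cry2 knockdown they gave 13.5, 102 and 335 CPM. The Cry1 knockdown was thus the highest library at each day, while the control and the Cry2 knockdown lay near each other, the Cry2 knockdown being higher at day 0 and lower at days 3 and 5. The 95% counting interval at day 0 was 6.70 to 11.3 CPM for the control and 24.5 to 32.7 CPM after Cry1 knockdown, and the 2 did not overlap. That of the Cry2 knockdown, 10.8 to 16.8 CPM, overlapped the control. These intervals cover counting error only and not variation between cultures. Mef2c (ENSMUSG00000005583, chromosome 13, 83504034 to 83667080, plus strand, mm10) shares no exon base with another annotated gene.

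Mef2a followed a different course in each genotype. The control rose early, from 145 CPM at day 0 to 406 CPM at day 3 and 441 CPM at day 5. The Cry1 knockdown had 189, 262 and 410 CPM, so its larger step lay between days 3 and 5. The Cry2 knockdown had 171, 346 and 585 CPM and ended as the highest of the 9 libraries. At day 0 the control was the lowest of the 3 genotypes, at day 3 the highest, and at day 5 it was in the middle. By day 3 the control had gained 88.0% of its day 0 to day 5 rise in CPM, the Cry2 knockdown 42.4% and the Cry1 knockdown 33.1%. Mef2a (ENSMUSG00000030557, chromosome 7, 67231163 to 67372858, minus strand) shares 2.06% of its exon bases with Lysmd4 on the other strand, and the kit used does not preserve strand.

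Mef2d rose in every genotype, most of it before day 3. It had 142, 260 and 321 CPM at days 0, 3 and 5 in the control, 167, 292 and 323 CPM after Cry1 knockdown, and 139, 261 and 302 CPM after Cry2 knockdown. Every day 0 library was below every later library, and at day 5 the 3 genotypes ran from 302 to 323 CPM. By day 3 the control had gained 65.7% of its rise in CPM, the Cry1 knockdown 80.5% and the Cry2 knockdown 74.7%. Mef2d (ENSMUSG00000001419, chromosome 3, 88142372 to 88172086, plus strand) shares 8.87% of its exon bases with the antisense gene 1700113A16Rik, whose reads cannot be told apart from its own without strand.

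Six4 and Tcf12 went the other way. Six4 (ENSMUSG00000034460, chromosome 12, 73099609 to 73113456, minus strand) stood at 46.2, 26.7 and 34.0 CPM on days 0, 3 and 5 in the control. It had 55.5, 27.7 and 26.4 CPM in the Cry1 knockdown and 48.5, 33.2 and 28.1 CPM in the Cry2 knockdown. All 3 libraries of day 0 were above the 6 later ones, and the order of the genotypes differed at each day. With 149 to 375 reads per library, Six4 had the fewest reads of the 5 genes after day 0.

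Tcf12 (ENSMUSG00000032228, chromosome 9, 71842688 to 72111871, minus strand) stood at 193, 181 and 158 CPM in the control. The Cry1 knockdown had 208, 157 and 174 CPM, and the Cry2 knockdown 216, 149 and 171 CPM. Day 0 was again above the later days in every genotype, but the gap was small: the lowest library of day 0 exceeded the highest later library by 193 to 181 CPM. Both knockdowns had their lowest level at day 3, whereas the control had its lowest level at day 5. In these bulk samples, fewer cells of a kind and less RNA per cell cannot be told apart.

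**Figure D1:**
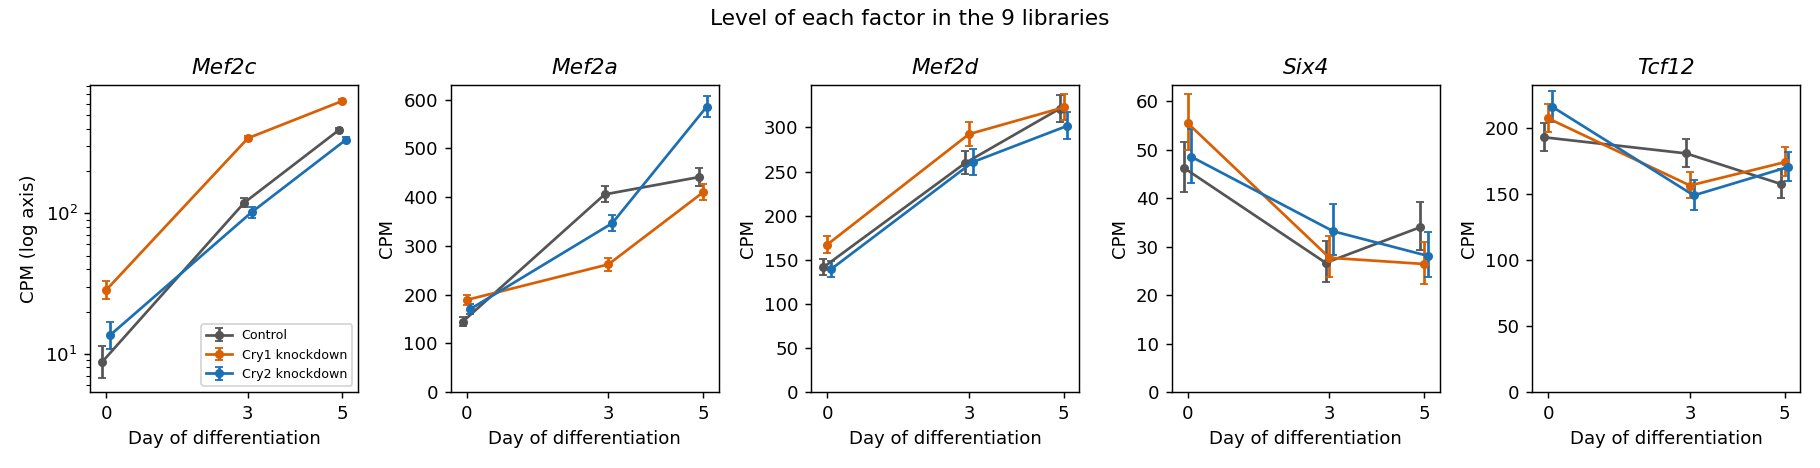
CPM of each factor against the day of differentiation, with 1 point per library, lines joining the 3 days of a genotype and bars giving the 95% counting interval. The Mef2c panel has a log axis and the others start at 0. Mef2c runs from 8.78 to 630 CPM with the Cry1 knockdown on top at each day, Mef2a crosses over between genotypes, and Six4 and Tcf12 are highest at day 0.

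Over the 3 genotypes, all 5 factors changed from day 0 to day 3, the 3 MEF2 genes upward and Six4 and Tcf12 downward. The comparison came from an additive edgeR quasi-likelihood fit of genotype and day over the 9 libraries, with Benjamini-Hochberg adjustment over 13094 genes and 0.05 as the threshold. A day has 1 library per genotype and no replicate cultures. The p-values of the day comparisons thus set a day difference against the disagreement between genotypes. Mef2c rose by a log2 fold change of 3.41 ± 0.22 (SE, 10.6-fold, adjusted p = 4.01e-06). Mef2a rose by 0.99 ± 0.17 on the log2 scale (1.99-fold, adjusted p = 0.00142) and Mef2d by 0.86 ± 0.08 (1.82-fold, adjusted p = 2.47e-05). Six4 fell by 0.78 ± 0.14 on the log2 scale (1.72-fold, adjusted p = 0.0013), and Tcf12 fell by 0.34 ± 0.10 (1.27-fold, adjusted p = 0.0157). Of all genes tested, 25.4% were called higher and 25.7% lower, so that a call in this comparison is common. Tcf12 no longer passed when the day 3 library of the Cry1 knockdown was left out (adjusted p = 0.0794), or when the Cry2 knockdown lacked day 0 (0.0687) or day 3 (0.0911).

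Between day 3 and day 5 Mef2c was the 1 factor of 5 that passed, with a further rise of 1.43 ± 0.18 on the log2 scale (2.70-fold, adjusted p = 0.00128), beside 14.7% of all genes called higher and 13.2% lower. The call was lost without the genotype term (1.27, adjusted p = 0.103). Mef2a had a fitted value of 0.50 ± 0.17 (adjusted p = 0.0591) and Mef2d of 0.22 ± 0.07 (adjusted p = 0.0551), just outside the threshold. Mef2a did pass in 5 alternatives, DESeq2 among them (adjusted p = 0.0182). Six4 (0.02 ± 0.14) and Tcf12 (0.05 ± 0.10) had values near 0.

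From day 0 to day 5 the net change of Mef2c was a log2 fold change of 4.84 ± 0.22 (28.7-fold, adjusted p = 3.41e-07), against 1.49 ± 0.18 for Mef2a (2.81-fold, adjusted p = 9.2e-05) and 1.08 ± 0.08 for Mef2d (2.12-fold, adjusted p = 3.56e-06). Six4 fell by 0.76 ± 0.14 on the log2 scale (1.70-fold, adjusted p = 0.00118). Tcf12 fell by 0.30 ± 0.10 on the log2 scale (1.23-fold, adjusted p = 0.0262), a call lost in 6 alternatives with adjusted p from 0.0526 to 0.117. Those were DESeq2 and the omission of day 0 or day 5 from either knockdown or of day 5 from the control. In this comparison 28.3% of all genes were called higher and 27.9% lower. The 3 day comparisons share libraries and are not independent of each other.

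The genotypes were compared over the 3 days in the same fit. A genotype has 1 library at each of 3 days and no replicate cultures, so the p-values set a genotype difference against the disagreement between days, and a lasting difference between cultures and one due to the knockdown cannot be told apart. Nor do the labels say that the 3 days came from separate cultures.

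In the Cry1 knockdown Mef2c was higher than in the control by a log2 fold change of 1.23 ± 0.19 (2.34-fold, adjusted p = 0.0185, higher at 3 of 3 days). It was the only 1 of the 5 factors called, and 0.932% of all genes were called higher and 1.73% lower. Within days, where there is no replicate, Mef2c had log2 ratios of 1.67, 1.52 and 0.69 on days 0, 3 and 5. The other factors had fitted values of -0.12 ± 0.17 for Mef2a (adjusted p = 0.757), 0.14 ± 0.07 for Mef2d (0.36), 0.00 ± 0.14 for Six4 (0.997) and 0.01 ± 0.10 for Tcf12 (0.975). Mef2c no longer passed when the Cry1 knockdown lacked day 0 or day 3 (adjusted p = 0.0571 and 0.108), when the control lacked day 0 or day 3 (0.0625 and 0.0889), or without the day term (0.95, adjusted p = 1). Its sign was positive in all 15 alternatives, with values from 0.953 to 1.50.

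None of the 5 factors was called between the Cry2 knockdown and the control by edgeR, none had an unadjusted p under 0.05, beside 12.2% of all genes, and DESeq2 called none, beside 0.649%. The fitted log2 fold changes were 0.13 ± 0.17 for Mef2a, -0.06 ± 0.20 for Mef2c, -0.04 ± 0.08 for Mef2d, 0.03 ± 0.14 for Six4 and 0.00 ± 0.10 for Tcf12, with adjusted p from 0.818 to 0.999. In this comparison 0.084% of all genes were called in either direction. Within days Mef2c had log2 ratios of 0.62, -0.22 and -0.22, and Mef2a of 0.24, -0.23 and 0.41 at days 0, 3 and 5, with no common direction.

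Set against each other, the knockdowns differed in Mef2c, which was lower after Cry2 knockdown, with a log2 fold change of -1.28 ± 0.20 (2.43-fold, adjusted p = 0.00759, lower at 3 of 3 days). Within days its log2 ratio was -1.06, -1.75 and -0.91. This comparison called 4.24% of all genes higher and 3.69% lower. It shares the Cry1 knockdown libraries with the comparison above, so the 2 Mef2c calls rest partly on the same samples. It no longer passed when day 3 of the Cry2 knockdown was left out (adjusted p = 0.0511) and without the day term (-1.15, adjusted p = 1). Mef2d had -0.18 ± 0.08 (adjusted p = 0.182 by edgeR, unadjusted under 0.05) and Mef2a 0.25 ± 0.17 (adjusted p = 0.398), while Six4 and Tcf12 had 0.03 ± 0.14 and -0.01 ± 0.10.

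**Figure D2:**
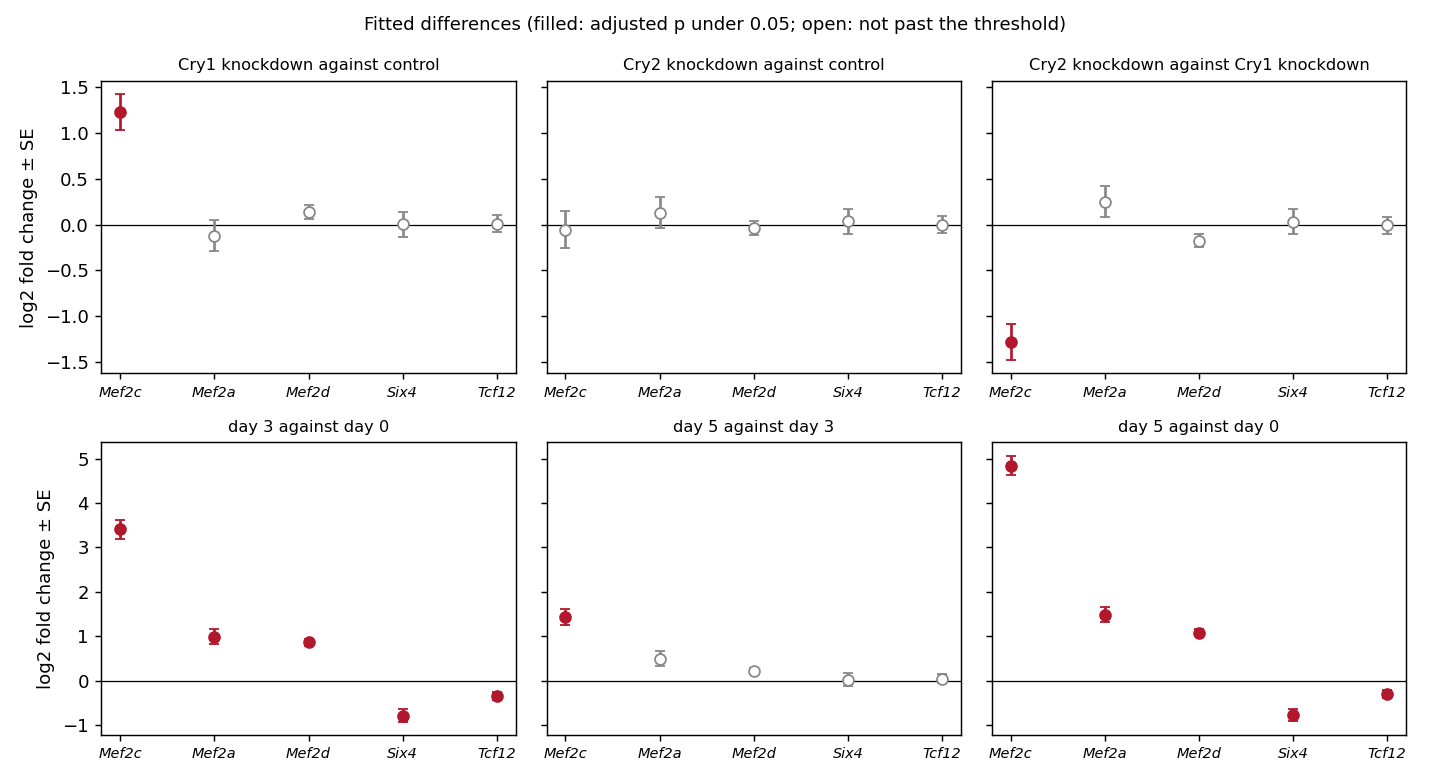
Fitted log2 fold change of each factor with its standard error, in the 3 genotype comparisons (upper row) and the 3 day comparisons (lower row, with its own scale). Filled points passed an adjusted p of 0.05, and Mef2c is the 1 filled point in the comparisons with the Cry1 knockdown, at 1.23 and -1.28.

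The response to differentiation, defined as days 3 and 5 against day 0 within a genotype, was compared between genotypes in a second edgeR fit over 13608 genes with 2 residual degrees of freedom. Each genotype has 1 library at day 0, so a difference in response rests on day 0 levels without replicate. None of the 5 factors passed in any of the 3 comparisons. Of all genes 0% were called for the Cry1 knockdown against the control, where 670 (4.92%) had an unadjusted p under 0.05 and DESeq2 called 15. The shares were 0.0367% for the Cry2 knockdown against the control and 0.11% for the Cry2 against the Cry1 knockdown. Mef2a was the 1 factor with an unadjusted p under 0.05, with a smaller response in the Cry1 knockdown than in the control (-0.76 ± 0.27, adjusted p = 0.96 by edgeR). It passed without the day 5 control (-1.03, adjusted p = 0.0199). For Mef2c the values were -0.57 ± 0.44 in the Cry1 and -0.84 ± 0.47 in the Cry2 knockdown (adjusted p = 0.987 and 0.835). DESeq2 called none of the 5 in these 3 comparisons, beside 0.125%, 0.0735% and 0.331% of all genes.

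Within the MEF2 and E protein families the genes were ranked by level, in CPM per kilobase of merged exons, which allows levels of different genes to be set side by side. At day 0 Mef2d made up 69.4% of the summed MEF2 level in the control, 65.5% in the Cry1 knockdown and 65.1% in the Cry2 knockdown. Mef2a made up 29.0%, 30.2% and 32.5%, and Mef2c 1.64%, 4.24% and 2.41%. At day 5 Mef2c had reached 22.9%, 32.9% and 19.1%, while Mef2d had come down to 49.5%, 44.2% and 45.2%. The Cry1 knockdown had the largest Mef2c share at every day, including 24.6% at day 3 against 9.62% in the control and 8.80% in the Cry2 knockdown. Mef2b was listed at 0 in all 9 libraries. The summed MEF2 level rose from 34.1 to 108.5 CPM per kilobase in the control, from 42.6 to 121.9 in the Cry1 knockdown and from 35.8 to 111.6 in the Cry2 knockdown.

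The order of Mef2a and Mef2d depended on the length used, because Mef2a has 14681 bases of merged exons but a longest transcript of 5538 bases, against 5985 and 5401 bases for Mef2d. Per kilobase of the longest transcript, Mef2a made up 39.6% and Mef2d 29.6% in the control at day 5, and Mef2c 30.9%. On that scale Mef2c was the largest of the family in the Cry1 knockdown at day 5, with 42.9%. At day 3 its 34.9% lay beside 34.7% for Mef2d, with 1 library. Per kilobase of merged exons Mef2d was the largest there at both days, with 55.2% and 44.2%. The rise of the Mef2c share with the day, and its place as largest in the Cry1 knockdown among genotypes, held on both scales.

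**Figure D3:**
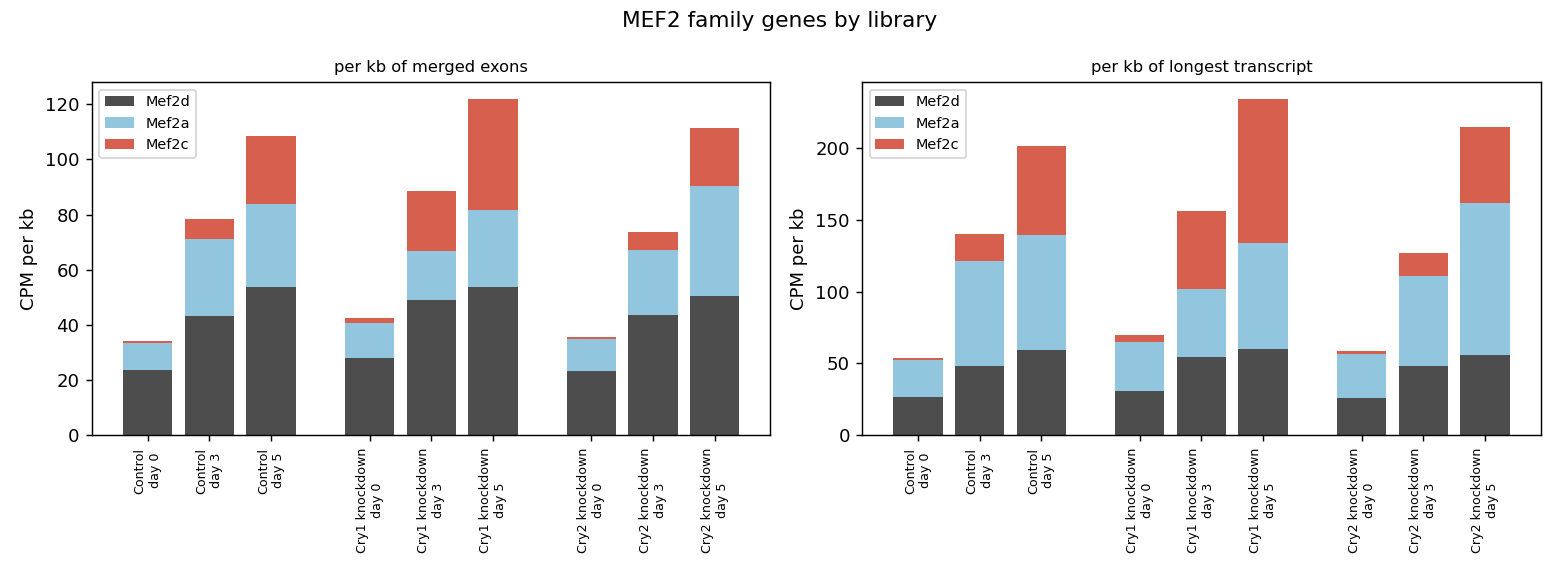
Stacked levels of Mef2d, Mef2a and Mef2c in CPM per kilobase in the 9 libraries, with lengths from merged exons (left) and from the longest transcript (right). The Mef2c part grows from 1.64% to 22.9% of the control bar on the left, and from 4.24% to 32.9% of the Cry1 knockdown bar.

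Tcf12 made up 17.8% to 27.5% of the summed E protein level per kilobase of merged exons, with Tcf3 (E2A) at 58.5% to 74.8% and Tcf4 (E2-2) at 6.65% to 14.02%. Tcf3 fell by 0.93 ± 0.08 on the log2 scale from day 0 to day 5 (adjusted p = 8.96e-06), a larger fall than that of Tcf12, and the Tcf12 share was higher at day 5 than at day 0 in all 3 genotypes. Per kilobase of the longest transcript the shares were 25.3% to 35.2% for Tcf12, 41.6% to 60.5% for Tcf3 and 12.5% to 23.2% for Tcf4, with the same order in every library and the same rise of the Tcf12 share. Neither Tcf3 nor Tcf4 was called between genotypes by edgeR or by DESeq2. At an unadjusted p under 0.05 Tcf4 was lower in the Cry1 knockdown than in the control (-0.32 ± 0.08, adjusted p = 0.0825).

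The MyoD family, with which Tcf12 pairs and MEF2 proteins cooperate, had 3 of 4 genes risen from day 0 to day 3 and none fallen, beside 25.4% of all genes called higher (median log2 fold change 1.75, against 0.01 over all genes). Myog, which encodes myogenin, rose by 3.12 ± 0.34 on the log2 scale (adjusted p = 9.13e-05), close to the rise of Mef2c. At day 0 the Cry1 knockdown had 179 CPM of Myog, against 58.5 CPM in the control and 35.3 CPM after Cry2 knockdown. At day 3 the values were 799, 681 and 556 CPM in that order, and at day 5 they were 996, 956 and 715 CPM. Myog was thus lower in the Cry2 than in the Cry1 knockdown at each day. None of the 4 genes was called between the Cry1 knockdown and the control by edgeR, at an unadjusted p under 0.05 or by DESeq2 (Myog 0.67 ± 0.32, adjusted p = 0.295). The response of Myog was larger in the Cry2 than in the Cry1 knockdown (1.84 ± 0.18, adjusted p = 0.0273), the 1 called of 4, beside 0.0441% of all genes called higher. For Mef2c that response difference was -0.27 ± 0.43 and did not pass. Both response differences rest on 1 day 0 library per genotype.

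Of the Six4 cofactors, which are EYA coactivators and other binding partners, 5 of 8 were tested. Eya4 and Sobp were higher in the Cry1 knockdown than in the control, beside 0.932% of all genes called higher. Eya4 had 47.3, 49.4 and 80.0 CPM at days 0, 3 and 5 after Cry1 knockdown, where the control had 24.6, 24.5 and 51.9 CPM, a log2 fold change of 0.85 ± 0.10 (adjusted p = 0.00826). It had 20.0, 19.2 and 41.3 CPM in the Cry2 knockdown, so the Cry1 knockdown was highest at every day. Sobp was higher by 0.95 ± 0.16 (adjusted p = 0.0213), beside levels of 5.41 to 12.9 CPM in the control. Against the Cry1 knockdown, the Cry2 knockdown was lower in Eya4 (-1.18 ± 0.11, adjusted p = 0.00131), Sobp (-1.49 ± 0.17, adjusted p = 0.00249) and Eya3 (-0.42 ± 0.08, adjusted p = 0.0216). Of all genes 3.69% were called lower between the knockdowns by edgeR. DESeq2 called 2 of the cofactors lower there, beside 2.29% of all genes. The median of the 5 was 0.29 against the control and -0.42 between the knockdowns, with 0.01 and -0.02 over all genes. From day 3 to day 5 all 5 tested cofactors were called higher by edgeR, beside 14.7% of all genes, while DESeq2 called 3 of them. From day 0 to day 3, Eya1 was the 1 of 5 that fell (-1.67 ± 0.17, adjusted p = 5.4e-05), beside 25.7% of all genes. Six4 itself did not differ between genotypes beyond its error, as given above.

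For 20 tested coactivators and activating kinases of MEF2 the median in the Cry1 knockdown against the control was -0.02, with 0.01 over all genes. Of these, 1 was called lower and none higher, beside 1.73% and 0.932% of all genes. It was Ppp3r1, the regulatory subunit of calcineurin, with 83.0, 96.1 and 102 CPM at days 0, 3 and 5 in the Cry1 knockdown against 116, 165 and 144 CPM in the control (-0.59 ± 0.10, adjusted p = 0.0231). It was higher in the Cry2 than in the Cry1 knockdown (0.67 ± 0.10, adjusted p = 0.00691). From day 0 to day 5, 5 of the 20 rose and 6 fell, which is near the 28.3% of all genes called higher and 27.9% called lower. Ppp3ca, the catalytic subunit of calcineurin, rose by 1.01 ± 0.11 (adjusted p = 4.74e-05). Map2k6, an activator of p38 kinase, fell from 3.99 to 8.54 CPM at day 0 to 0.370 to 0.754 CPM at day 5 (adjusted p = 6.74e-05 by edgeR). The day 5 levels lay near the floor, so no fold is given.

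For 10 genes listed as repressors of MEF2 the median in the Cry1 knockdown against the control was -0.01, with 0.01 over all genes. Of these, 1 was higher and none lower, beside 0.932% and 1.73% of all genes. It was Sik1, a kinase that phosphorylates class II deacetylases and, like Nfatc3 of the same list, is better known for aiding MEF2, at 0.52 ± 0.09 (adjusted p = 0.0218). Between the knockdowns, Smad3 (0.54 ± 0.09, adjusted p = 0.00877) and Hdac9 (0.92 ± 0.15, adjusted p = 0.011) were higher and Sik1 lower (-0.50 ± 0.09, adjusted p = 0.014) in the Cry2 knockdown. In that comparison 4.24% of all genes were called higher and 3.69% lower. Hdac9, a class II deacetylase that binds MEF2 proteins, had levels of 16.6, 20.4 and 15.2 CPM after Cry1 knockdown, 22.2, 32.2 and 30.3 CPM in the control libraries, and 34.8, 37.0 and 26.4 CPM after Cry2 knockdown. The Cry1 knockdown was the lowest at all 3 days, although its difference from the control did not pass (-0.70 ± 0.15, adjusted p = 0.0525). Hdac7 fell with differentiation, by 1.20 ± 0.10 on the log2 scale from day 0 to day 5 (adjusted p = 1.16e-05).

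Of 11 tested inhibitors and competitors of E proteins, 7 fell and 2 rose from day 0 to day 5, beside 27.9% of all genes called lower and 28.3% higher. Their median was -1.20, against 0.01 over all genes. Id3, which binds E proteins and keeps them from DNA, fell by 3.49 ± 0.18 on the log2 scale (adjusted p = 6.44e-07) and Id2 by 3.20 ± 0.21 (adjusted p = 2.27e-06), while Tcf12 fell by 0.30. In the Cry1 knockdown against the control the 1 call by edgeR was Msc, or MyoR, a repressor that competes for E proteins. Msc was lower (-1.21 ± 0.24, adjusted p = 0.0389), beside 1.73% of all genes. Yet 6 of the 11 had a positive value, with a median of 0.23 against 0.01 over all genes. At an unadjusted p under 0.05 by edgeR 4 were higher and 3 lower, beside 9.2% and 9.83% of all genes. DESeq2 called 1 higher and 1 lower, beside 0.961% and 1.57%. Snai1 (-0.62 ± 0.15), Id3 (-0.75 ± 0.18) and Hey1 (-0.57 ± 0.14) were lower in the Cry2 than in the Cry1 knockdown, with adjusted p of 0.0361, 0.0375 and 0.047. Of all genes 3.69% were called lower there. Against the control, the Cry2 knockdown had no call in the MyoD family, the cofactors, coactivators, repressors or inhibitors by edgeR or DESeq2. At an unadjusted p under 0.05 by edgeR there were 0 of 4, 2 of 5, 1 of 20, 3 of 10 and 2 of 11, beside 12.2% of all genes.

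A list of 35 muscle genes known as targets of MEF2 or Six4 rose with differentiation, 32 of 35 from day 0 to day 3 (25.4% of all genes) and 33 of 35 from day 0 to day 5 (28.3% of all genes), and none fell. The medians were 4.57 and 5.31 on the log2 scale, against 0.01 over all genes. Pygm, muscle glycogen phosphorylase, rose by 6.59 ± 0.18 (adjusted p = 5.4e-08) by day 5. Casq1, the calcium store protein calsequestrin, rose from 0.148 to 0.806 CPM at day 0, at or under the floor in 2 of 3 libraries, to 115 to 185 CPM at day 5 (adjusted p = 9.24e-08 by edgeR), and no fold is given from so few reads. Between days 3 and 5, 15 of the 35 rose further, beside 14.7% of all genes.

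In the Cry1 knockdown 32 of the 35 targets had a positive fitted value against the control, with a median of 0.53 against 0.01 over all genes. Ckm, muscle creatine kinase, was the 1 gene called by edgeR (0.84 ± 0.18, adjusted p = 0.0452), beside 0.932% of all genes called higher. DESeq2 called 3 of the 35, all higher, beside 0.961%. An unadjusted p under 0.05 by edgeR was found for 19 of the 35, all higher, beside 9.2% of all genes. Ckm had 13.3, 409 and 350 CPM at days 0, 3 and 5 after Cry1 knockdown, where the control had 4.54, 217 and 255 CPM. Within days the median log2 ratios of the 35 on days 0, 3 and 5 were 1.01, 0.51 and 0.18, with medians over all genes from -0.01 to 0.02. At day 0, 18 of the 35 were over 2-fold higher, beside 3.19% of all genes. Mef2c lay above this median at each day, by the ratios given above.

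In the Cry2 knockdown against the control none of the 35 was called by edgeR or by DESeq2, with 4 higher and 1 lower at an unadjusted p under 0.05, beside 5.77% and 6.48% of all genes, and a median of 0.10. Between the knockdowns 5 targets were lower in the Cry2 knockdown: Stac3, a protein of excitation-contraction coupling (-0.78 ± 0.14, adjusted p = 0.0139), Smyd1, a muscle methyltransferase (-0.97 ± 0.19, adjusted p = 0.0192), Ckm (-0.84 ± 0.18, adjusted p = 0.0256), Casq1 (-0.74 ± 0.18, adjusted p = 0.0356) and Atp2a1, the calcium pump of fast fibres (-0.74 ± 0.18, adjusted p = 0.0405). These 5 calls by edgeR stood beside 3.69% of all genes called lower, and DESeq2 called 4 of the 35 lower, beside 2.29%. The median of the 35 was -0.43, against -0.02 over all genes. Within days the target median between the knockdowns was -1.24, -0.35 and -0.02 at days 0, 3 and 5, so that at day 5 the targets lay near 0 while Mef2c had -0.91. For the Cry2 knockdown against the control it was -0.16, 0.14 and 0.16, opposite in sign to Mef2c at each day. Against the control, the Cry1 knockdown thus had both higher Mef2c and higher target medians at each day, and the part of such markers in the Mef2c difference was not tested. The summed level of the 11 myoblast and myotube markers at day 0 was 3244 CPM after Cry1 knockdown and 2584 CPM after Cry2 knockdown, where the control had 2513 CPM, and at day 5 it was 21228, 22327 and 20296 CPM in that order. Gene by gene at day 0, 9 of the 11 were higher after Cry1 knockdown than in the control, with a median log2 ratio of 1.11. Of the 11, 6 were over 2-fold higher, beside 3.19% of all genes. After Cry2 knockdown 3 of the 11 were higher, with a median of -0.40, although the sum was above that of the control. At day 5 the medians were 0.07 and 0.13. The markers Des, Ckm, Acta1 and Tnnt3 are also among the 35 targets, so the lists are not separate readings. None of the 35 was called in the response comparisons by edgeR. For the Cry2 against the Cry1 knockdown 18 responses were higher and 1 lower at an unadjusted p under 0.05, beside 3.75% and 3.32% of all genes, and DESeq2 called 7, all higher, beside 0.22%. For the Cry1 knockdown against the control 19 were lower, beside 2.92%, and DESeq2 called 1 of them lower, beside 0.0915%. For the Cry2 knockdown against the control 3 were higher, beside 2.78%, and DESeq2 called none.

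**Figure D4:**
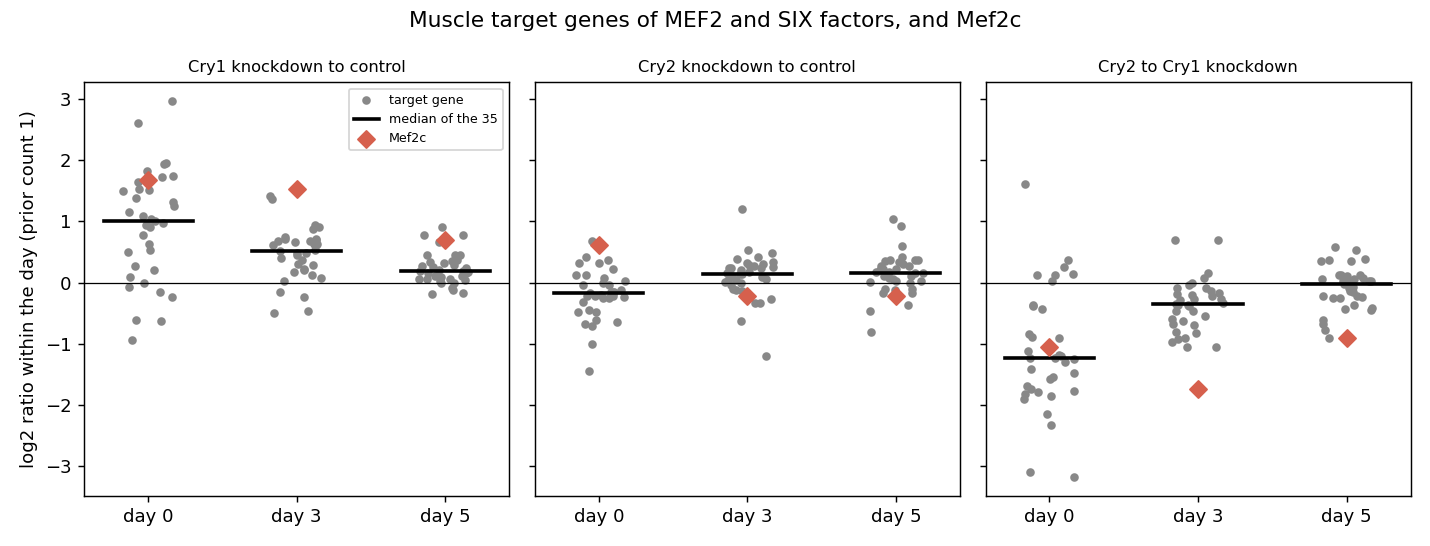
Log2 ratio of CPM within each day for the 35 target genes (grey points), their median (black bar) and Mef2c (red diamond), with 1 library per genotype and day. In the left panel the median falls from 1.01 at day 0 to 0.18 at day 5 and Mef2c from 1.67 to 0.69, and the middle panel lies around 0.

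Promoter windows were at hand for 27 of the 35 targets, and 14 of them held CAGCTG, or 51.9%, beside 14.7% of all genes. Of the 5 targets that were lower in the Cry2 than in the Cry1 knockdown, Ckm, Casq1 and Atp2a1 carry it, and these stretches are printed to set them beside that of Tcf12.
Ckm, chr7:19410844-19410861, plus strand: cCAGCTGtcccccgccag
Casq1, chr1:172220074-172220101, minus strand: ggggaaggaacCAGCTGctgggagggag
Atp2a1, chr7:126463112-126463139, minus strand: ctcataaggacCAGCTGggggctggggg
The matches begin 249, 195 and 55 bases before the starts of Ckm, Casq1 and Atp2a1. The pattern CTANNNNTAG, with any base at each N, was in 3 of the 27 targets (Klhl41, Hspb3 and Jun), against 3.7% of all genes. Neither TCAGGTT nor CACGTG was in any of the 27. The windows hold 250 bases, and enhancers farther away were not searched.

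The genes whose pattern over the 9 libraries was most like each factor were found by Pearson's r of log2 CPM among 10135 genes with a mean of at least 5 CPM. These values describe the libraries, which share their days and genotypes. Pearson's r takes no account of the size of a change. Of the genes named below, Cul4a ran from 144 to 252 CPM, where Mef2c ran from 8.78 to 630 CPM. Myom3 ran from 2.90 to 387 CPM, where Mef2d ran from 139 to 323 CPM. For Mef2c the first 3 were Cul4a, a ubiquitin ligase scaffold (r = 0.993), Cd36, a fatty acid transporter (0.992), and Stat5b, a signal transducer (0.991). Cd36 had 0, 15.9 and 56.4 CPM in the control, 1.48, 56.7 and 97.3 CPM after Cry1 knockdown and 0.161, 8.66 and 28.9 CPM after Cry2 knockdown, the order that Mef2c had at days 3 and 5. For Mef2d they were Jph2, a junction protein of the calcium release unit (0.998), Tead4, a TEA domain transcription factor (0.997), and Myom3, an M-band protein (0.997). For Mef2a they were Dld, Rbm18 and Napa (0.985 to 0.988), of which Dld had 126, 218 and 210 CPM in the control, 133, 176 and 217 CPM after Cry1 knockdown and 133, 185 and 261 CPM after Cry2 knockdown, with the early rise in the control that Mef2a showed.

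For Six4 the 3 nearest genes were Frmd6, Epb41 and Faxc (0.974 to 0.981), and for Tcf12 they were Tpcn1, Cdr2l and Epha2 (0.966 to 0.980). Tpcn1, an endolysosomal channel, had levels of 246, 223 and 194 CPM in the control, 289, 197 and 216 CPM after Cry1 knockdown and 304, 188 and 206 CPM after Cry2 knockdown. As with Tcf12, the control was lowest at day 5 and both knockdowns at day 3. Tcf12 had 103 genes with r above 0.9, against 965 for Mef2d, 803 for Mef2c, 643 for Mef2a and 258 for Six4. Among the 5 factors themselves, r was 0.98 for Mef2c with Mef2d, 0.87 for Mef2a with Mef2c, 0.71 for Six4 with Tcf12, and -0.65 to -0.88 between a MEF2 gene and Six4 or Tcf12. By Spearman's rank correlation, 1 of the 3 nearest genes stayed for Mef2a, 2 for Mef2c, none for Mef2d, 2 for Six4 and 1 for Tcf12.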

How the data were processed

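RNA selected by polyA was sequenced from 9 C2C12 libraries, 1 for each genotype and day. The authors deposited raw counts per gene, in 1 file per sample. Per the submitters' processing notes the tools were CASAVA 1.8, HISAT2 2.0.2 and featureCounts 1.4.6 of Subread, with build mm10, and the strand setting is not given in the sources used here. Per the labels, the library kit was TruSeq RNA v2. Counts were scaled by TMM and tested with edgeR 4.0.16 (limma 3.58.1, R 4.3.3) by quasi-likelihood F tests after filterByExpr. The additive fit had 13094 genes and 4 residual degrees of freedom, the response fit 13608 and 2. A standard error is the absolute log2 fold change over the square root of F. Python 3.11.15 with numpy 2.4.6, pandas 2.3.3, scipy 1.17.1 and matplotlib 3.10.9 did the rest. Symbols, gene positions and lengths came from GENCODE on mm10, and promoter windows from RefSeq, for 27025 genes.

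The factors and the gene lists were chosen with earlier results of these data known, and a list's counts are a description. Named genes are the 5 factors, up to 4 called genes of lowest p per list and comparison or the 2 of lowest p, and the 3 genes most like each factor; some of these are given only in counts. Cd36, Dld and Tpcn1 were chosen for full values after being seen. Alternatives were RLE size factors, no filter, a filter of 1 CPM in 3 libraries, DESeq2 1.42.0, a fit without the other term, only the 6 libraries compared, each library left out, day as a number, a prior count of 5 within days, longest transcripts for lengths and Spearman ranks for likeness. The fits were tested on simulated data. A gene of the lists, and values that need it, are not reported here.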

Additional observations from a re-analysis of the deposited data

How the results depend on the processing

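The fitted differences of the 5 factors gave 630 values under the alternatives, of which 559 kept their direction and their side of the threshold, 17 lost a call, 6 gained one and 48 changed sign. Every change of sign was in a value that was not called. Calls lost or gained stand beside their results in the report. The day term of the additive fit compares the genotypes within days. No further block by replicate number could be fitted, since each genotype and day has 1 library. The response of a genotype could not be estimated without its day 0 library. Within days, a prior count of 5 in place of 1 left every log2 ratio of the 5 factors within its sign.

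The number of genes called over the whole table depended on the setting more than the factors' own values did. Without a filter on low counts it was 919 and 316 for the Cry1 and Cry2 knockdowns against the control, and 72, 48 and 133 for the responses of Cry1 against control, Cry2 against control and Cry2 against Cry1. Without the day term it was 0 in all 3 genotype comparisons, and without the genotype term 2190 for day 5 against day 3. With only the 6 libraries compared it was 203 for the Cry1 and 5 for the Cry2 knockdown against the control, and a filter of 1 CPM in 3 libraries gave 6 for the latter. DESeq2 called 85 for Cry2 against control, 660 for Cry2 against Cry1, 2382 for day 5 against day 3, and 15, 10 and 45 for the responses in the order above. With day as a number, the responses had 8 calls for Cry1 against control and 3 for Cry2 against Cry1. The causes were not tested.

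With 1 library left out at a time, the calls ranged from 27 to 366 for Cry1 against control, 0 to 17 for Cry2 against control and 258 to 1137 for Cry2 against Cry1. For day 3 against day 0, day 5 against day 3 and day 5 against day 0 they ranged from 5374 to 6534, 2045 to 3739 and 6238 to 7446. For the responses they ranged from 0 to 126, 5 to 160 and 3 to 180.

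Signs changed as follows. Six4 in Cry1 against control was -0.0081 without a filter, -0.0012 with the 1 CPM filter, -0.0025 by DESeq2 and -0.00024 with 6 libraries, and Tcf12 was -0.00029 without a filter. Tcf12 in Cry2 against control was 0.0015 with RLE size factors, 0.0014 by DESeq2, 0.012 without the day term and 0.0014 with 6 libraries. Six4 from day 3 to day 5 was -0.0020 without a filter. With day as a number, the response of Mef2a in Cry2 against control was 0.020 and that of Mef2c in Cry2 against Cry1 was 0.035.

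With 1 library left out, the values in Cry1 against control ranged from -0.35 to 0.11 for Mef2a, -0.15 to 0.16 for Six4 and -0.055 to 0.14 for Tcf12. In Cry2 against control they ranged from -0.015 to 0.37 for Mef2a, -0.18 to 0.21 for Mef2c, -0.063 to 0.012 for Mef2d, -0.080 to 0.20 for Six4 and -0.066 to 0.12 for Tcf12. In Cry2 against Cry1 they ranged from -0.077 to 0.18 for Six4 and -0.073 to 0.077 for Tcf12, and from day 3 to day 5 from -0.15 to 0.13 for Six4 and -0.050 to 0.17 for Tcf12. The response of Tcf12 in Cry1 against control ranged from -0.31 to 0.046. The responses in Cry2 against control ranged from -0.42 to 0.14 for Mef2a, -0.092 to 0.059 for Mef2d and -0.31 to 0.21 for Six4, and that of Mef2c in Cry2 against Cry1 from -0.69 to 0.16.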
